A study of Mus musculus with 4 samples.

Results

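Coding microexons are internal exons so short that each adds only a few amino acids to a protein. Here they were the distinct internal exons of 3 to 27 bases that lie wholly inside the coding part of a transcript, read from the gene annotation used with an RNA polymerase I (Pol I) study. On the assembled chromosomes of mouse build mm10, 1442 of 160457 internal coding exons met this rule, or 0.899%. They belonged to 1058 of the 16569 gene symbols with an internal coding exon, or 6.39%. Members were chosen by exon length and position in the annotation, so their length is a description and not a result, while an annotation has no replicates, so shares are given as descriptions with no test, the main ones beside the same share over longer exons.

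The study profiled Pol I by CUT&Tag, in which an antibody guides a transposase that cuts and tags chromatin beside the bound protein. The cells were C64 mouse embryonic stem cells, given 500 nM auxin for 6 h (2 libraries) or left as a control without treatment (2 libraries). The labels name no degron-tagged protein and do not say whether the libraries of a group came from separate cultures. No column of the annotation holds a value of a library, so auxin and control are not compared and depth is unknown.

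Exons normally carry signals inside them that help the splicing machinery to pair their ends, and a very short exon has little room for such signals. In neurons the splicing factor Srrm4 (nSR100) promotes inclusion of many microexons, often in proteins of the synapse, of vesicle traffic and of the cytoskeleton. A cassette exon whose length is divisible by 3 can be included or left out without shifting the reading frame. Other short exons, such as those of collagens and caseins, belong to genes built from repeated units.

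The exon of Epp13 below is shown to give the scale of a microexon inside its introns. Of 32851 RefSeq promoter windows of 300 bases each (GRCm38.p6), 1 held a whole coding microexon with 30 bases on either side, and no other exon sequence was used here. The stretch is chr7:6255894-6255971 on the plus strand, and capitals mark the 18-base exon at 6255924-6255941. The exon was preceded by ag and followed by gt, the usual last and first bases of introns. It was in 1 of 2 transcripts, and the other used an exon 2 bases longer that shared 1 edge. That longer exon is not counted as a microexon, because it was not an internal exon wholly inside the coding part.
Epp13 exon 2: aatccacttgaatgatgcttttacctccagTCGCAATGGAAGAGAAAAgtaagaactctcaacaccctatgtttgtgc

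The annotation held 47116 transcripts on these chromosomes, of which 38851 were coding and 2040 (5.25% of the coding ones) contained a microexon. Most genes had a single one. Of the 1058 symbols, 865 had 1 microexon, 122 had 2 and 71 had 3 or more. All 1058 were protein-coding genes in RefSeq. Symbols with a microexon had a median of 14 internal coding exons, against 6 in the 15511 symbols without one. The part of exon number in this difference was not tested. By chromosome, microexons made up 0.579% (chromosome 16) to 1.32% (chromosome 10) of internal coding exons, and 0 of 236 on chromosome Y.

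A few annotated microexons are not bounded by introns on both sides. Next to 23 of the 1442, in 15 genes, the gap to the neighbouring exon was 1 or 2 bases, too short to be spliced as an intron. Among the other microexons the shortest flanking intron was 54 bases. Such gaps touched 16 of the 161 microexons of up to 10 bases, and 49 of the 159009 longer exons (0.0308%). They included the 3-base exons of Flg2, Rims1 and Zswim6 and 3 of the 4 in a row in Rasgrf2. Of the 23, 6 had a length divisible by 3 and 22 were in every transcript of their gene. Without them, 1419 microexons in 1046 symbols remained.

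**Figure D1:**
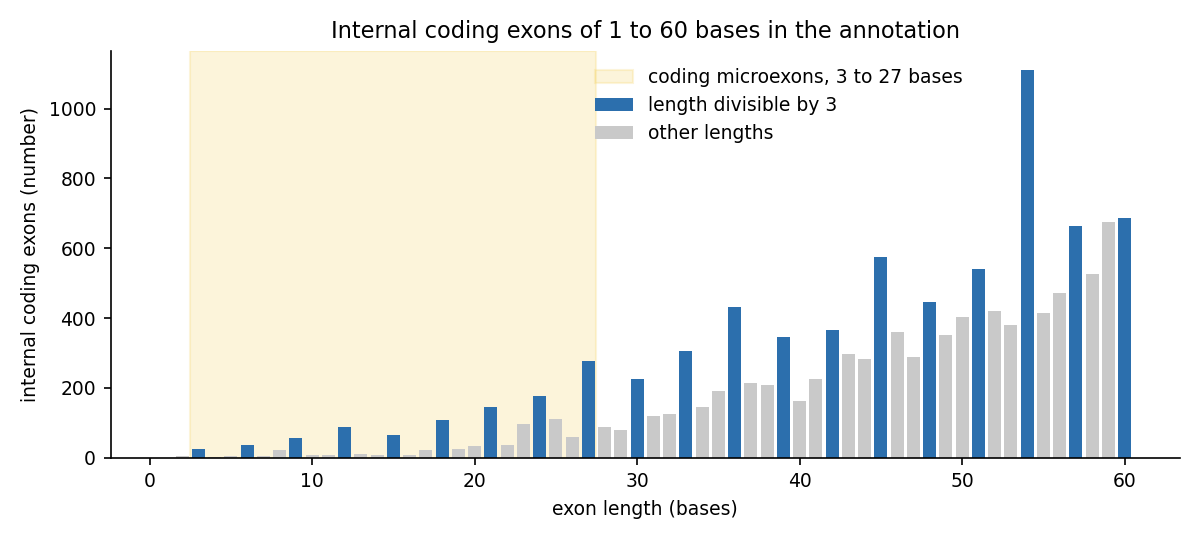
Number of distinct internal coding exons (vertical axis) by exon length in bases (horizontal axis), from 1 to 60 bases, with lengths divisible by 3 in blue and other lengths in grey and the microexon range shaded. Within the shaded range every length divisible by 3 has more exons than either neighbouring length, up to 278 exons of 27 bases.

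Each microexon length divisible by 3 had more exons than the lengths 1 base shorter or longer, though 461 of the 1442 microexons had other lengths. The median was 23 bases, 340 (23.6%) had at most 15 bases, and all 1442 together covered 29265 bases. Lengths of 18, 21, 24 and 27 bases alone took 708 of them (49.1%), with 109, 145, 176 and 278 exons. The lengths between were rarer, with 25 exons of 19 bases, 33 of 20 bases, 60 of 26 bases and 97 of 23 bases. Length 25, with 111 exons, was an exception among these. Just outside the limits lay 6 exons of 2 bases (in Grk6, Kazn, Nhej1, Septin7 and Traf5) and 89 exons of 28 bases, and just inside lay 24 exons of 3 bases and the 278 of 27 bases.

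Of all microexons, 981 of 1442 (68.0%) had a length divisible by 3, against 40.7% of longer internal coding exons. By length class the share was 77.8% for 3 to 9 bases, 82.4% for 10 to 15, 73.8% for 16 to 21 and 59.9% for 22 to 27. In longer exons it was 47.8% for 28 to 51 bases, 41.1% for 52 to 120, 38.4% for the next class up to 200 and 43.7% above 200. Of these classes, exons of 10 to 15 bases had the highest share.

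The smallest members had 3 bases, the length of a codon. Of 24 exons of 3 bases, Asxl1 and Asxl2, which encode Polycomb-associated proteins, each had one as exon 3 of 13 (chr2:153354650-153354652 and chr12:3445452-3445454). Both exons interrupted a codon after its second base, and both were in every transcript of their gene (1 of 1 and 2 of 2). Cyth1 and Cyth2, which encode ARF exchange factors with a pleckstrin homology domain, each had one that was left out in some transcripts (present in 2 of 8 and 1 of 2). Clasp1 and Clasp2, microtubule plus-end binding proteins, had a 3-base exon in 20 of 20 and 4 of 8 transcripts. Cdh23, a cadherin of the hair-cell tip link, had a 3-base exon in 3 of 3 transcripts at exon 35 of 71. Abca2, a lipid transporter, had one in 1 of 2 transcripts, and Cpne9, a copine, had one in its 1 transcript.

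Microexons were left out of some annotated transcripts more often than longer exons. An exon is called skipped here where another transcript of the gene joins both its neighbours directly. By this measure 355 of 1442 microexons (24.6%) were skipped, against 2.14% of longer exons. The share was 38.6% for 3 to 9 bases, 48.1% for 10 to 15, 25% for 16 to 21 and 15.8% for 22 to 27, and it was 7.02% for 28 to 51, 2.49% for 52 to 120, 1.38% for the next class up to 200 and 1.64% above 200 bases. At single lengths, 44 of 66 exons of 15 bases (66.7%), 44 of 88 of 12 bases and 20 of 38 of 6 bases were skipped, but 4 of 111 of 25 bases. Genes differ in how many transcripts are annotated, and this affects each share.

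Skipping and the reading frame went together. Of the skipped microexons, 333 of 355 (93.8%) had a length divisible by 3, against 648 of the 1087 others (59.6%). In longer exons the shares were 65.7% of skipped and 40.1% of other exons. All 355 skipped microexons are among the 509 missing from some transcripts, so a split by inclusion is not independent of that by skipping. By inclusion, 83.9% of these 509 and 59.4% of the 933 in every transcript were divisible by 3. Both shares lay above the 40.7% of longer exons.

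**Figure D2:**
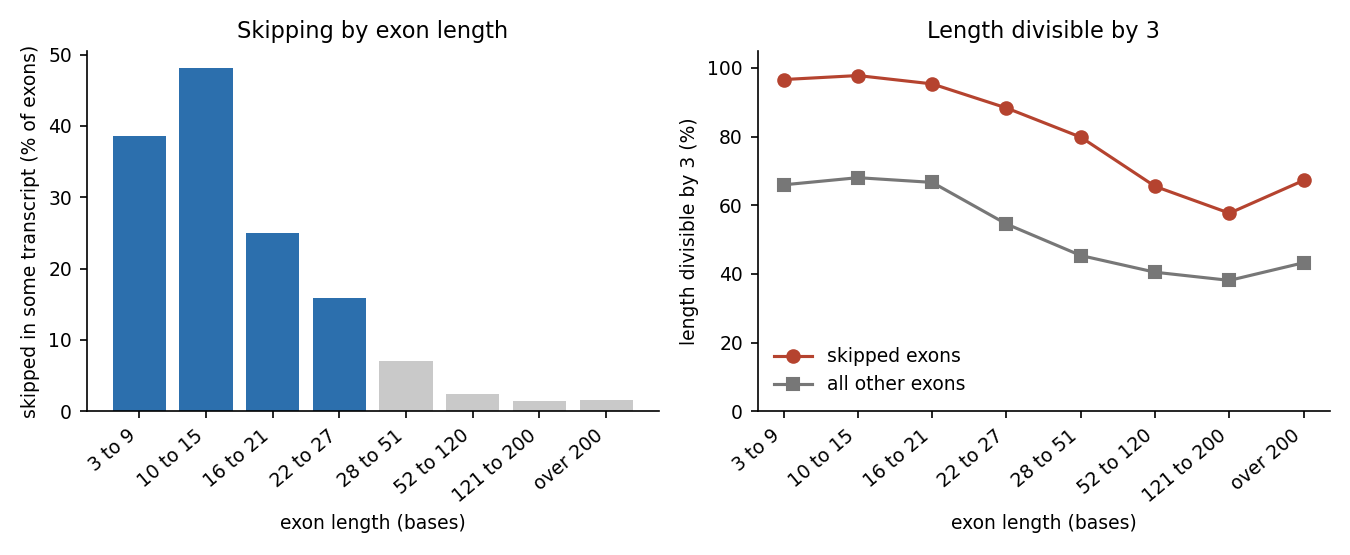
Left, percent of internal coding exons skipped in some transcript (vertical axis) by exon length class in bases (horizontal axis), with microexons in blue and longer exons in grey. Right, percent of exons with a length divisible by 3 in the same classes, for skipped exons and all other exons. The skipped share is 48.1% for 10 to 15 bases and 1.64% above 200 bases, and skipped exons lie above the others in every class.

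The annotated end of the coding part was compared between transcripts with and without a skipped exon. Where a transcript that skips the exon was itself coding, it kept the same stop position for 324 of 332 microexons divisible by 3 (97.6%), and for 8 of 20 not divisible by 3 (40%). The values in longer exons were 97.96% and 55.6%. The 22 skipped microexons of a length not divisible by 3 included the 23-base exon of Pecam1, an adhesion receptor of endothelial cells (in 2 of 4 transcripts), the 25-base exon of Cd47, the ligand of SIRPα (3 of 5), and the 8-base exon of Dock9, an exchange factor for Cdc42 (2 of 5). Pecam1 and Cd47 were picked after their values were seen.

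Of all microexons, 933 (64.7%) were in every transcript of the symbol, against 89.2% of longer exons. Symbols with a single transcript cannot show anything else, so the 935 microexons of symbols with at least 2 transcripts are the fairer base. There 426 (45.6%) were in every transcript, against 78.4% of longer exons, and 254 (27.2%) were in a single one. By length the share in every transcript was 30.5% for 3 to 9 bases, 19.4% for 10 to 15, 39.8% for 16 to 21 and 59.6% for 22 to 27.

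The 509 microexons missing from some transcripts were missing in different ways, and one microexon can count under several. A spanning transcript skipped 408 of them, alone or with neighbours. For 98, some transcript did not reach the exon at all. For 83, another transcript used an exon of another length that shared one edge. The closest such length differed by more than 27 bases in 45 and by exactly 3 bases in 21. Nrg3, a neuregulin, had such a pair, with 24 and 27 bases at one site (chr14:38509330-38509353 and chr14:38509330-38509356, in 1 and 2 of 3 transcripts). Tnnt1, troponin T of slow muscle, had 19 and 22 bases at one site, in 2 of 4 transcripts each.

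The phase of an exon is the place in a codon at which it begins. Of the 1442 microexons, 632 (43.8%) began between codons, 564 (39.1%) after the first base of a codon and 242 (16.8%) after the second. In longer exons these shares were 45.8%, 32.2% and 21.9%. Among exons divisible by 3, 43.1% of microexons and 56.6% of longer exons began between codons, and 41.4% and 30.5% began after the first base. A further 4 microexons had different phases in different transcripts.

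The introns around microexons had lengths close to those around longer exons. The shorter of the 2 flanking introns had a median of 616.5 bases (quartiles 200 and 1379), against 698 bases for longer exons. Upstream introns had a median of 1154.5 bases, against 1325, and downstream introns 1078.5 bases, against 1232. Both flanks exceeded 10000 bases for 30 microexons (2.08%), against 2.64% of longer exons. Skipped microexons had a median shorter intron of 861 bases, against 530 for the other microexons, and longer exons showed the same order with 1089 bases for skipped and 691 for other exons. At 10 to 15 bases the order was the other way, with 689.5 bases for skipped and 702 for other microexons.

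**Figure D3:**
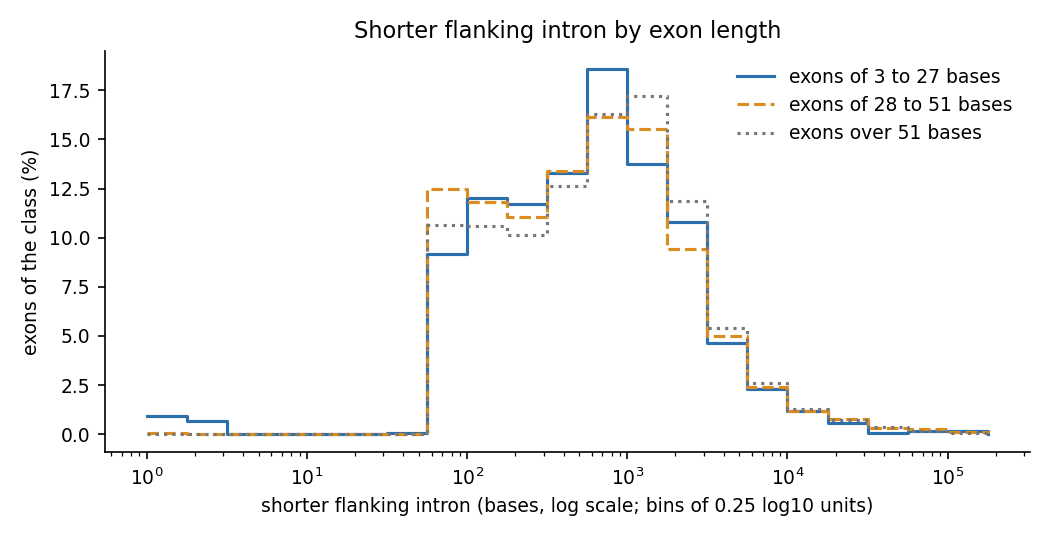
Percent of exons of each length class (vertical axis) by the length of the shorter flanking intron in bases (horizontal axis, log scale), for coding microexons of 3 to 27 bases (solid line), exons of 28 to 51 bases (dashed) and longer exons (dotted). The 3 outlines overlap over most of their range, and the microexon line alone stands clear of 0 at the left edge, where the gaps of 1 or 2 bases lie.

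The extremes were far apart. The longest shorter flank was that of Nrg3, with 102113 bases downstream and 158864 upstream of its 24-base form, followed by the 27-base exon of Cadm2, a synaptic adhesion protein (chr16:66953274-66953300, 70391 bases downstream). Short introns stood in rows in Csn1s1, a casein gene, with 98 to 117 bases between its 14 consecutive 18-base exons. The nominal shortest flanks, in Acbd4, Flg2 and Hoxa13, were the gaps of 1 base described above.

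The gene lists below group genes by function. The list of genes with neuronal microexons was written from what is known of such exons, so its high count is not independent evidence. It shares 34 of its 44 symbols with other lists, so the counts of lists that share them are not independent of it. Of these 44 symbols, 37 (84.1%) held a microexon, against 6.39% of all symbols. They held 57, of which 55 were divisible by 3 and 66.7% were skipped, against 24.6% of all microexons. Genes of the lists often have many exons, so the share of exons is the other measure. Microexons were 4.67% of internal coding exons in this list, 4.602% in collagen and matrix genes, 3.69% in synaptic adhesion and scaffold genes, 3.46% in cytoskeleton and motor genes and 3.26% in vesicle traffic genes, against 0.899% over all genes. They were 2.78% in sarcomere genes, 2.51% in immune receptor genes, 1.90% in ion channel genes and 1.76% in regulators of small GTPases. The median number of internal coding exons per gene was 47.5 in collagen and matrix genes and 30 in cytoskeleton and motor genes. It was 21.5 in vesicle traffic genes, 21 in synaptic genes and 7 in immune receptor genes, against 7 over all symbols.

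Of the 4 transcription factors of the Mef2 family, which act in muscle and neurons, 3 had a short exon that began between codons. Mef2a had 24 bases (chr7:67244521-67244544, in 3 of 7 transcripts), Mef2c 24 bases (chr13:83654598-83654621, in 14 of 18) and Mef2d 21 bases (chr3:88161781-88161801, in 1 of 3). All 3 were skipped, while Mef2b had none. Kdm1a, the histone demethylase LSD1, had its 12-base exon (chr4:136563438-136563449) in 1 of 3 transcripts and beginning between codons. Phf21a, a partner of LSD1, had 23 bases in 4 of 9 transcripts and Taf1, the largest TFIID subunit, had 6 bases in its 1 transcript (chrX:101590734-101590739). In all, 7 of 34 transcription and chromatin genes (20.6%, against 6.39% of all symbols) held a microexon. All 7 are also in the list of genes with neuronal microexons, so this count is not independent of that list. The 34 genes had a median of 19.5 internal coding exons, against 7 over all symbols. Microexons made up 0.930% of those exons, near the 0.899% over all genes.

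In signalling and endocytosis, Src, the tyrosine kinase, had 18 bases (chr2:157458843-157458860) in 1 of 2 transcripts, 209 bases after the previous exon. This is the place of the neuronal insert in its SH3 domain. The dynamins, GTPases that cut vesicles from membranes, each had 12 bases that began between codons. Dnm1 had a pair of them, in 4 of 4 and 3 of 4 transcripts, Dnm2 had 1 in 4 of 7 and Dnm3 had 1 in 1 of 2. Picalm, a clathrin adaptor, had 24 bases in 4 of 7 transcripts and Amph, amphiphysin, had 2 exons of 24 bases in a row in 2 of 2. Of 34 vesicle traffic genes, 16 (47.1%, against 6.39% of all symbols) held a microexon. All 27 of their microexons were divisible by 3, and 59.3% were skipped, against 24.6% of all microexons. The 27 include the 3- and 6-base exons of Rims1, which border gaps of 2 and 1 bases, too short to be spliced as introns.

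At the synapse, 9 of 31 adhesion and scaffold genes (29.03%, against 6.39% of all symbols) held 21 microexons. Of these, 42.9% were skipped, against 24.6% of all microexons. Ptprd, a receptor phosphatase that organises synapses, had 9 bases in 8 of 8 transcripts, 18 bases in 3 of 8 (chr4:76138556-76138573) and 12 bases in 6 of 8 (chr4:76135545-76135556). All 3 began after the first base of a codon.

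Of 37 cytoskeleton and motor genes, 22 (59.5%, against 6.39% of all symbols) held a microexon. Of their 42 microexons, 45.2% were skipped, against 24.6% of all microexons. Clasp1 had 4, with 24 bases in 8 of 20 transcripts, 27 bases in 17 of 20, 24 bases in 16 of 20 and the 3 bases already named. Clasp2 had 6, and the 3-base one was the one skipped with its neighbours joined. Kif1a, an axonal kinesin, had 4, in 5 of 5 transcripts (18 bases), 2 of 5 (27 bases), 1 of 5 (27 bases) and 2 of 5 (24 bases). Among 35 regulators of small GTPases, 16 (45.7%, against 6.39% of all symbols) held a microexon. Of their 19 microexons, 42.1% were skipped, against 24.6% of all microexons. Asap1 and Asap2, ARF GTPase-activating proteins, each had 9 bases that began between codons, in 2 of 5 and 2 of 3 transcripts.

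Ion channel genes had microexons in 15 of 29 cases (51.7%, against 6.39% of all symbols). Of their 21 microexons, 28.6% were skipped, against 24.6% of all microexons. Kcnma1, the BK potassium channel, had 12 bases in 5 of 22 transcripts and 9 bases in 7 of 22. Cacna1c, a calcium channel of heart and neurons, had 27 bases in 11 of 11. Equal length within a family did not always mean the same position. Ryr1 and Ryr3, calcium release channels, had 15 bases at exon 70 and 18 bases at exon 83, whereas Ryr2 had its 15 bases at exon 5, just after a 21-base exon 4.

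Of 34 RNA-binding protein genes, 6 (17.6%, against 6.39% of all symbols) held 6 microexons, or 1.60% of their internal coding exons, and 5 of the 6 were skipped (83.3%). Of these holders, Cpeb4, Eif4g1 and Eif4g3 are also in the list of genes with neuronal microexons. The translation regulators Cpeb2, Cpeb3 and Cpeb4 each had 24 bases that began after the first base of a codon, in 4 of 5, 4 of 5 and 1 of 3 transcripts. Srrm4, the splicing factor itself, had 27 bases in its 1 transcript (chr5:116472507-116472533). Among genes with a skipped microexon, Ppfia2, a liprin of the active zone, had the most transcripts, and its 9 bases (chr10:106882736-106882744) were in 11 of 29 transcripts and skipped in 18.

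**Figure D4:**
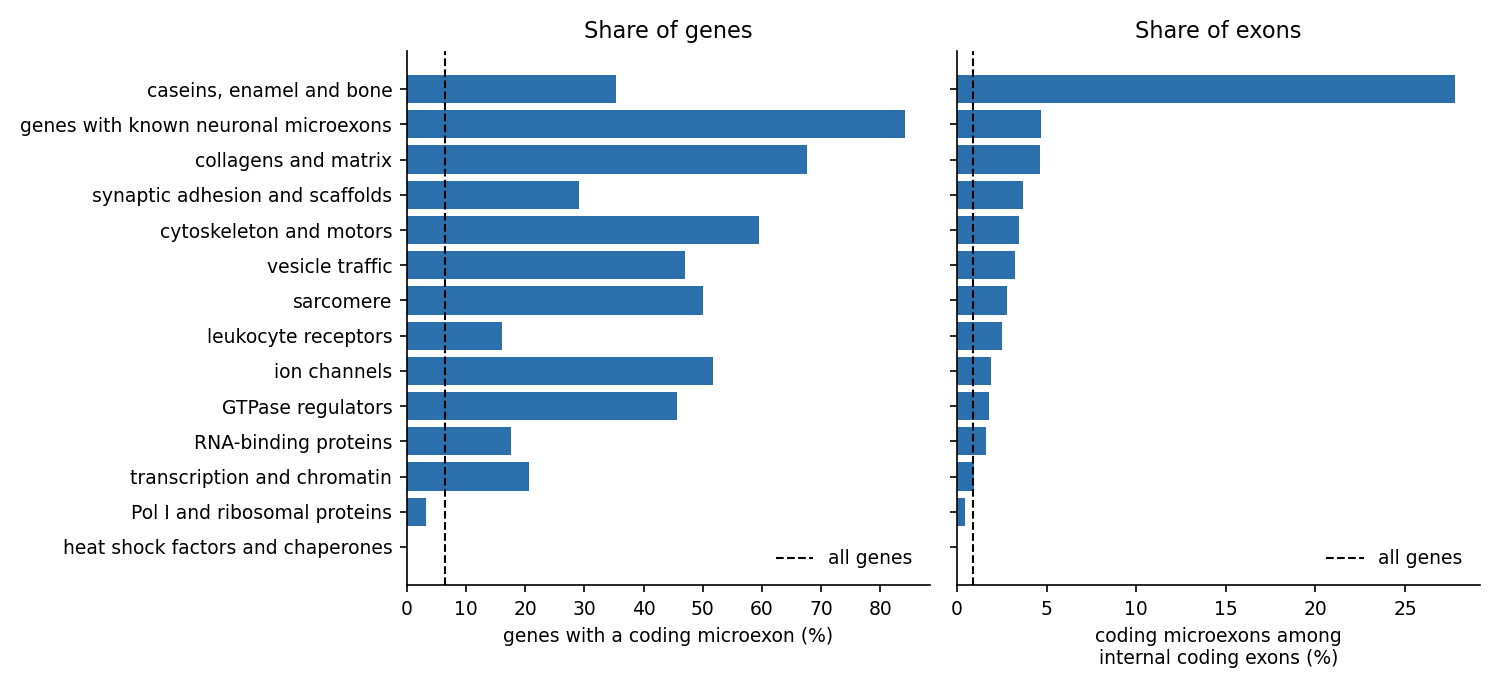
Left, percent of the genes of each list that held a coding microexon, and right, percent of the internal coding exons of those lists that were microexons, with 1 bar for each list and a dashed line at the value over all genes (6.39% and 0.899%). Genes with known neuronal microexons reach 84.1% of genes, while casein, enamel and bone genes reach 27.8% of exons, with 33 of their 35 microexons in caseins.

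Collagens had many microexons that were seldom skipped. Of 34 collagen and matrix genes in the list, 23 (67.6%, against 6.39% of all symbols) held 74. Of the 74, 5.41% were skipped, against 24.6% of all microexons. Over all 41 collagen symbols, 28 held 82 microexons. Of these, 55 in 21 genes had 27 bases, 51 of the 55 began between codons and 51 were in every transcript. Genes with 1 annotated transcript, such as Col7a1, Col16a1 and Col23a1, cannot show skipping. Collagen triple helices are built from repeats of 3 residues beginning with glycine, and 27 bases encode whole repeats. Collagens gave 55 of the 278 exons of 27 bases (19.8%). Col13a1, a membrane collagen, had 12 microexons, with 10 of 27 bases, 1 of 24 and an 8-base exon 3. The membrane collagens Col23a1 and Col25a1 also had an 8-base exon that began after the first base of a codon.

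The list of casein, enamel and bone genes had the densest set. It had 35 microexons in 6 of 17 genes (35.3%, against 6.39% of all symbols). They were 27.8% of all internal coding exons of the list, against 0.899% over all genes. Of the 35, 33 were in 4 casein genes, while Amtn and Spp1 had 1 each. Csn1s1, the alpha-S1 casein of milk, had 20, of which 14 in a row were 18 bases each and in 3 of 3 transcripts (252 coding bases in all). All 33 microexons of the caseins began between codons, and 5 of them were skipped. Among sarcomere genes, 13 of 26 (50%, against 6.39% of all symbols) held 29 microexons. Of the 29, 31.03% were skipped, against 24.6% of all microexons. Tnnt3, troponin T of fast muscle, had 7, of 14, 18, 18, 15, 12, 15 and 19 bases from 5′ to 3′. Those of 14 and 19 bases and the second of 18 were in 17 of 17 transcripts. The first of 18 bases was in 10 of 17 transcripts, the exons of 15 bases in 10 and 12, and the 12-base exon in 6. The 4 variable exons were all divisible by 3, while the 14- and 19-base exons, which were constant, were not.

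**Figure D5:**
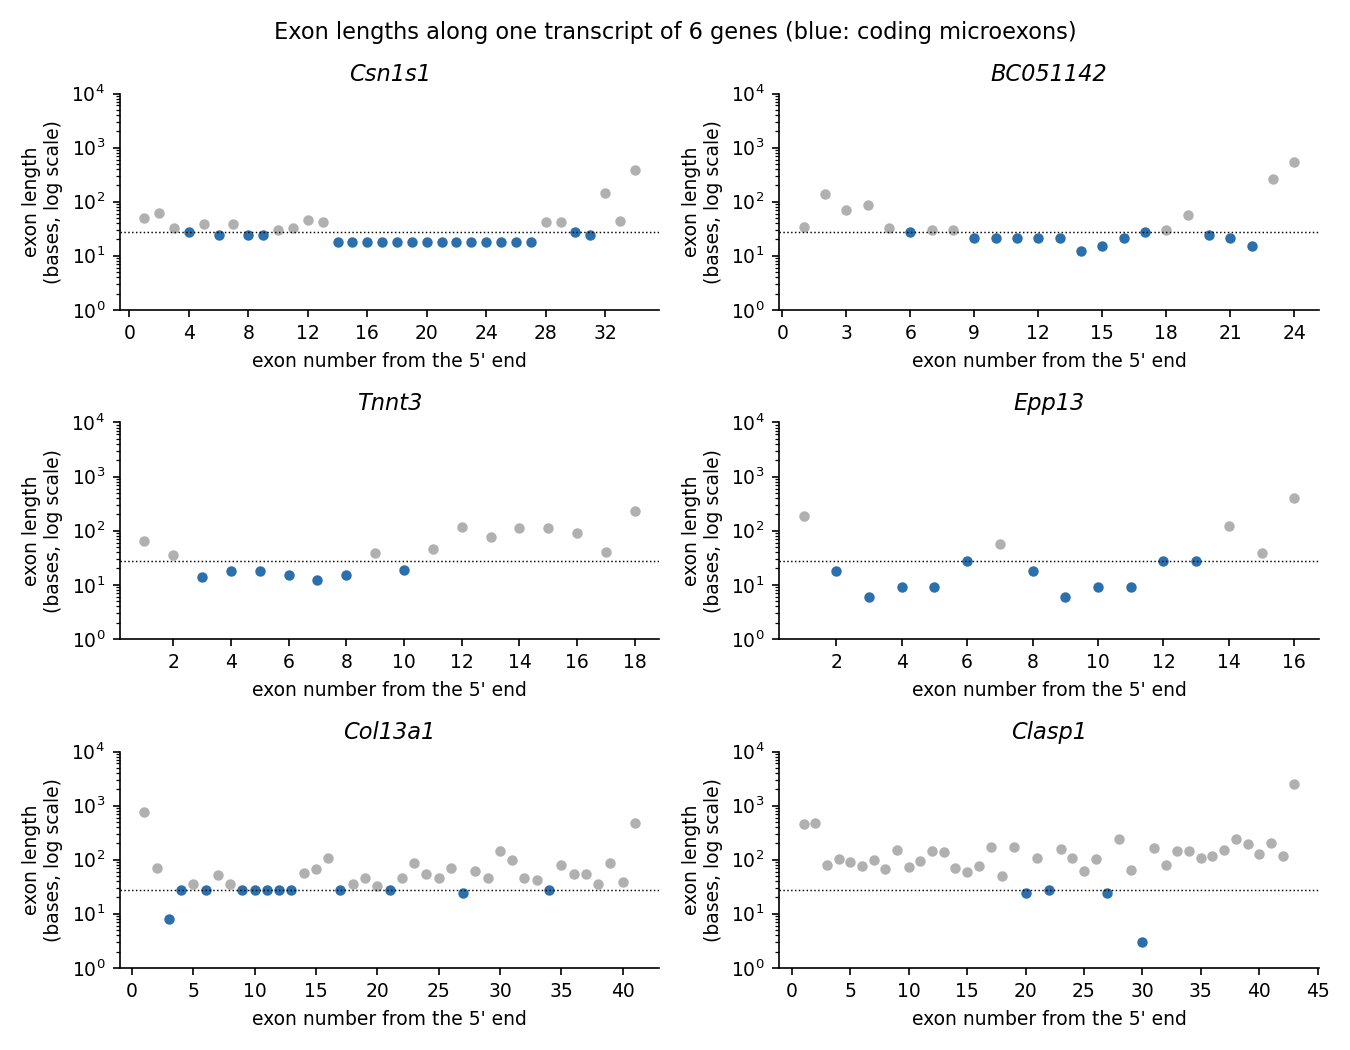
Length of each exon in bases (vertical axis, log scale) by exon number from the 5′ end (horizontal axis) along 1 transcript each of Csn1s1, BC051142, Tnnt3, Epp13, Col13a1 and Clasp1, with coding microexons in blue, other exons in grey and a dotted line above 27 bases. Csn1s1 shows its 14 exons of 18 bases in a row, and Clasp1 shows 4 scattered microexons.

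Microexons stood side by side in 73 genes, with 2 in a row in 50 genes, 3 in 11 and at least 4 in 12. These counts include 4 genes, Rasgrf2, Traf5, Zswim6 and Efcab7, in which gaps of 1 or 2 bases border exons of the run. BC051142 had 9 in a row, of 12 to 27 bases. Epp13 had 11 in all, and the lengths 18, 6, 9, 9 and 27 occurred in that order both at exons 2 to 6 and at exons 8 to 12. All 11 began after the first base of a codon, and 10 were in both transcripts. Dmbt1, a scavenger receptor protein of mucosa, also had 11, of which 10 were 27 bases and 1 was 21 bases, each in 2 of 2 transcripts. The butyrophilin-like genes Btnl1, Btnl4 and Btnl6 had 4 in a row with the same lengths, 21, 27, 27 and 27 bases.

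Some gene families shared a microexon that is not divisible by 3, and these families were picked after their values were seen. The TRIM ubiquitin ligases had a 23-base exon in 34 of 59 genes, all beginning between codons, with 30 in every transcript and 1 (Trim68) skipped. These made up 34 of the 97 exons of 23 bases (35.1%). Each of 8 genes of vitamin K-dependent proteins, most of which act in blood clotting (F2, F7, F9, F10, Proc, Pros1, Proz and Gas6), had a 25-base exon that began between codons, was in every transcript and was never skipped. F2, F7, Pros1 and Gas6 have 1 annotated transcript each, and a gene with 1 transcript cannot show skipping. In F9 the 25-base exon was exon 3 of 8 (chrX:60004408-60004432). The 3 phosphatidylinositol transfer proteins Pitpna, Pitpnb and Pitpnc1 each had 8 bases that began after the first base of a codon. The troponin I genes had different lengths in the same phase, after the second base of a codon, with 4 bases in Tnni1, 7 in Tnni2 and 13 in Tnni3. Each of these lengths leaves 1 base over whole codons.

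Other families shared a length divisible by 3 and had it skipped or kept. Apbb1, Apbb2 and Apbb3, adaptors that bind the amyloid precursor protein, each had 6 bases beginning after the second base of a codon, skipped in 2 of the 3 genes. Atp2a1, Atp2a2 and Atp2a3, the SERCA calcium pumps, each had 18 bases in every transcript. The Fc gamma receptors Fcgr1, Fcgr2b, Fcgr3 and Fcgr4 each had 21 bases in every transcript. Of these genes, Atp2a1, Fcgr1 and Fcgr4 have 1 annotated transcript each. Of the 25 immune receptor genes in the list, 4 (16%, against 6.39% of all symbols) held 6 microexons. Of the 6, 0 were skipped, against 24.6% of all microexons. Among the 4, Cd3e and Fcer1g have 1 annotated transcript each and so cannot show skipping.

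Genes close to the topic of the series held 1 microexon between them. Of 31 Pol I and ribosomal protein genes with an internal coding exon, 1 (3.23%) held a microexon, and 0 of 22 heat shock factors and chaperones did, against 6.39% of all symbols. The 1 was Rps24, a protein of the small ribosomal subunit, with 3 bases at chr14:24493617-24493619 in 2 of 6 transcripts. At that background share, lists of this length hold few microexon genes, so nothing is read from these counts.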

How the data were processed

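The deposited annotation was read as 12-column BED, with exons from the block sizes and starts and the coding part from columns 7 and 8. Its rows come from the authors, and the other contigs and the 24 rDNA rows were left out. The submitters' processing notes name mm10 as build, and FastQC, Bowtie2, deepTools and bedtools as tools, without versions. The origin of the annotation is not given in the sources used here. Values per library were in 0 of the 12 columns, so sequencing depth is unknown and no interval is given. Positions are counted from 1. Introns are gaps between neighbouring exons, and each microexon's intron length is the median over its transcripts. Shares over transcripts count annotated transcripts, coding or not, and say nothing of their abundance in these cells. Symbols were looked up in RefSeq (GRCm38.p6), where 1058 of 1058 matched. Reading was done with Python 3.11.15 and numpy 2.4.6, drawing with matplotlib 3.10.9, and the routines were tested on simulated data.

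The members and the 14 gene lists (406 symbols) were chosen with earlier results of these data known. Genes named are those of the smallest exons, the genes with most microexons, the first 6 holders in each list, the longest and shortest flanks, the longest runs and the skipped microexons of genes with most transcripts. Not all of them are printed, and some items are not reported here. Genes outside this rule, among them Src, the Ryr genes, Pecam1, Cd47 and the families sharing a length, were picked after their values were seen. The alternatives were other length limits, filters on gaps and coding length, all contigs, counting per transcript, other definitions of inclusion and intron length, and older gene names.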

Additional observations from a re-analysis of the deposited data

How the results depend on the processing

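No paired analysis was possible because no column of the annotation belongs to a library. For 6 quantities, 35 alternatives were computed, of which 15 moved. The other 20 stayed within 1.5 times (counts) or within the 95% binomial interval of the value (shares and medians). That interval takes microexons as independent, which those of 1 gene are not, so it serves only to sort the alternatives. With a limit of 15 bases the count was 340 in 291 symbols, 68 of them in the lists (146 at 27 bases), with 80.3% divisible by 3 and 46.8% in every transcript. With a limit of 51 bases it was 8223 in 4804 symbols, with 51.3% and 79.7%. Counting each transcript separately gave 2822 microexons, 61.7% in every transcript and a median shorter intron of 706 bases. The share in every transcript was 67.8% among transcripts that span the exon and 45.6% for symbols with at least 2 transcripts. The longer flanking intron had a median of 2031 bases. These changes follow from what each alternative counts. The annotation lists transcripts unevenly across genes, which limits every share that compares them, and it holds no measure of use in any cell.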

Other observations

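On chromosome 9, 4 genes (4921528I07Rik, Gm10634, Gm2396 and Gm29825) held 32 microexons between them, of which 30 had 25 bases and 2 had 22. All 32 began between codons and 0 were skipped. They made up 30 of the 111 exons of 25 bases in the annotation. With 1 annotated transcript each, 4921528I07Rik and Gm10634 cannot show skipping. In Gm10634 the 8 exons of 25 bases lay at exons 3, 6, 9, 12, 15, 19, 21 and 23 of 27. The 4 genes were picked after their values were seen, and whether they are copies of one another was not tested.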
